A study of Mus musculus with 4 samples.

Results

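Transcript levels of 10 transcription factors that build or hold the identity of myeloid and dendritic cells were read in mouse dendritic cells: Spi1, Batf3, Id2, Runx1, Runx3, Cebpa, Cebpb, Klf4, Bcl6 and Tcf4. The factors were chosen by name, and every probe set annotated to them was taken, which gave 24 of 22690 probe sets and 10 of 12393 named genes. The study compared 4 samples of cells positive for CD11c from mice lacking interleukin 10 (IL10-/-), each kept for 6 h: in media alone (the control), with SEA, with LPS, or with both (SEA/LPS). LPS is the bacterial lipopolysaccharide sensed through TLR4, and SEA, which the labels leave unexpanded, usually stands in such work for soluble egg antigen of the parasite Schistosoma mansoni. All groups carry the IL10-/- deletion, so none shows these factors in cells able to make the cytokine, and doses, the tissue of origin and the number of animals were not given in the sources used here. The labels put all 4 samples in the same lot and describe the cells only as CD11c+.

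Each group was measured on 1 Affymetrix array, so no difference below has a replicate check, an error or a p-value. Values are array signals on a linear scale. A signal at or under 33.3, the 40th percentile of all signals, was set to that floor, and where one of a pair of arrays lies there the fold is only a minimum, written "at least". Differences are in log2, and 2-fold, a log2 difference of 1, is the size used to count a gene as higher or lower. Where a gene has several probe sets, the one with the highest mean was used for counts. Probe sets differ in how brightly they bind, so signals are compared only within a probe set.

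These factors act together. PU.1, the product of Spi1, opens regulatory DNA in myeloid progenitors and works with C/EBP and RUNX proteins, while C/EBPalpha drives progenitors towards monocytes and granulocytes and C/EBPbeta serves inflammatory and emergency responses. Among dendritic cells, BATF3 pairs with JUN proteins to maintain the cross-presenting cDC1 subset, KLF4 serves monocytes and part of the cDC2 subset, and TCF4 (also E2-2) is the E protein that keeps plasmacytoid dendritic cells in their fate. ID2 binds E proteins and keeps them from DNA, RUNX3 serves dendritic cells that respond to TGF-beta as well as lymphocytes, and BCL6 represses transcription.

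The arrays had median signals from 45.05 to 53.2, and 57.3% to 61.1% of probe sets lay above the floor. The 3' to 5' signal ratio of Gapdh, a sign of RNA integrity, ran from 2.21 in media to 3.12 with SEA/LPS, and the hybridisation controls were 0.55 log2 brighter with LPS and 0.31 brighter with SEA/LPS than in media. All 11 dendritic cell markers were measured, 10 of them above the floor on every array, with Itgax, which encodes CD11c, between 1851 and 2732. Of the macrophage and monocyte markers 9 of 10 were measured, at a summed signal of 6970 to 8432 per array, most of it from Csf1r (4520 to 5706). Of 10 T cell markers 2 were measured, and Cd3e, Cd3d and Cd3g, the defining ones, were at the floor on every array. Of 10 B cell markers 5 were measured, at a summed signal of 235 to 302: Blk read 61 to 101.8 and Vpreb3 59.5 to 80.1, Cd79a, Ms4a1 and Cr2 read at most 54.9, and Cd79b, Pax5, Ebf1 and Pou2af1 were at the floor throughout.

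**Figure D1:**
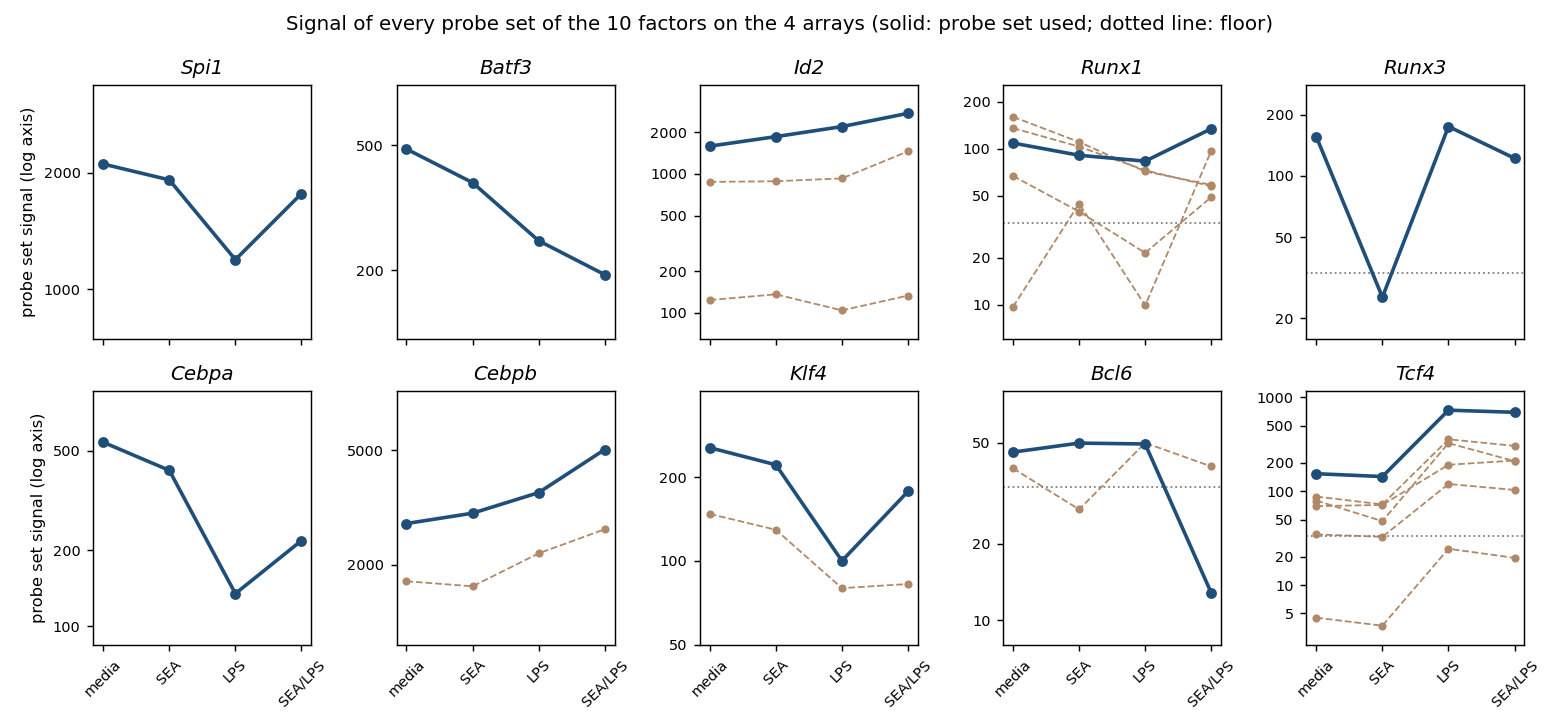
Signals (log axis, a separate range in each panel) of all 24 probe sets of the 10 factors on the 4 arrays, with lines joining the points of a probe set; the solid line is the probe set used for the gene and the dotted line the floor of 33.3. Cebpa, Klf4 and Spi1 are lowest with LPS, Batf3 is lowest with SEA/LPS, and 5 of 6 probe sets of Tcf4 are higher on both arrays with LPS than on those without.

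LPS alone gave the widest spread among the factors. Tcf4 was 4.75-fold higher than in media, while Cebpa was 4.01-fold and Klf4 2.56-fold lower. Batf3 (1.96-fold) and Spi1 (1.76-fold) were lower by less than 2-fold. Thus 1 of 10 factors was at least 2-fold higher, where 6.06% of the 9473 measured genes were, and 2 of 10 were at least 2-fold lower, where 8.43% were. The median difference was -0.14 over the 10 factors and -0.06 over all measured genes. Of the genes past 2-fold, 41.8% were on the higher side as deposited, 55.4% with arrays matched at their 75th percentile and 10.5% with arrays matched on the hybridisation controls. In a bulk sample, a lower signal from fewer cells of a type and one from less RNA per cell cannot be told apart.

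Tcf4 stood out because several probe sets lay on the same side with LPS. The probe set used (1416723_at) read 153.7 in media and 143 with SEA, against 729.8 with LPS and 693 with SEA/LPS. Both arrays with LPS were therefore high and both without were low. On this probe set SEA differed little from media (-0.10) and SEA/LPS little from LPS (-0.07), whereas 1424089_a_at was lower with SEA both without LPS (79.5 to 48, -0.73) and with it (325 to 209, -0.64). The others above the floor with LPS gave differences from media of 2.03 (1416724_x_at), 2.03 (1424089_a_at), 1.46 (1434148_at) and 1.78 (1434149_at). In all, 5 of 6 probe sets were higher with LPS. The sixth, 1416725_at, stayed at or under the floor on every array, at 4.5 in media and 3.7 with SEA, against 24.4 with LPS and 19.5 with SEA/LPS. With SEA/LPS the 5 probe sets were 1.40 to 2.17 log2 over media.

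Markers of plasmacytoid dendritic cells, the cell type TCF4 is known for, were set beside it. Of 11 listed, 7 were measured, Tcf4 among them, and they summed to signals of 571 and 708 on the media and SEA arrays and of 2666 and 2369 on the LPS and SEA/LPS arrays. The sum was carried by Tcf4 itself, by Irf7 (78.8 in media and 1058 with LPS) and by Bst2 (176 and 698), both of which are also induced by interferon in many cell types. Among the others, Spib read 50 in media and 71.2 with LPS, Ccr9 9 (under the floor) and 36.1, Cox6a2 53.9 and 60.1, and Pacsin1 49 and 12.4 (under the floor). Ly6d, Tlr9 and Ptcra were at the floor on all 4 arrays. Siglech was not analysed here. The part of cell composition in the Tcf4 difference was not tested.

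Cebpa and Klf4 were the factors lower with LPS by 2-fold or more. Cebpa (1418982_at) read 539.7 in media and 417 with SEA, against 135 with LPS and 219 with SEA/LPS, so that both arrays with LPS lay below both without. Klf4 (1417394_at) read 256 in media and 222 with SEA, against 100.1 with LPS and 178 with SEA/LPS. Its second probe set (1417395_at) read 148, 129.5, 79.8 and 82.6 in the same order, a smaller difference with LPS (-0.89). Both Klf4 probe sets were lowest with LPS, and both were also under media with SEA/LPS.

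Batf3 and Spi1 lay on the same side at smaller size. Batf3 (1453076_at) read 486 in media and 379.7 with SEA, against 248 with LPS and 193 with SEA/LPS. It was lower with SEA both without and with LPS, with differences of -0.36 and -0.36, and it stood 2.51-fold under media when both agents were present. Spi1 (1418747_at) read 2103 in media and 1914 with SEA, against 1192 with LPS and 1764.5 with SEA/LPS, so the array with LPS alone was the low one and the other 3 lay within 0.25 log2 of media. Cebpa, Batf3 and Spi1 have a single probe set each, so no second reading was at hand.

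The DNA just upstream of the start site is shown for Cebpa, Klf4 and Batf3, because they share a lower signal with LPS. Each line is the 250 bases before the start in mouse build GRCm38.p6, from RefSeq, 5' to 3' on the gene's strand, and capitals mark CCAAT boxes (CCAAT), TATA boxes (TATAAA), GC boxes bound by SP and KLF proteins (GGGCGG) and E-boxes (CACGTG), read on both strands. Cebpa lies on the plus strand at chr7:35119043-35119292, Klf4 on the minus strand at chr4:55532476-55532725 and Batf3 on the plus strand at chr1:191098164-191098413.
Cebpa: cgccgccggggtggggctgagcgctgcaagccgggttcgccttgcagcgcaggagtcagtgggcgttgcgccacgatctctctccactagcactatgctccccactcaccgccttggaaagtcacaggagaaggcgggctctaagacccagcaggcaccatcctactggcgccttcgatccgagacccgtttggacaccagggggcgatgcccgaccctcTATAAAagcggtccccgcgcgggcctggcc
Klf4: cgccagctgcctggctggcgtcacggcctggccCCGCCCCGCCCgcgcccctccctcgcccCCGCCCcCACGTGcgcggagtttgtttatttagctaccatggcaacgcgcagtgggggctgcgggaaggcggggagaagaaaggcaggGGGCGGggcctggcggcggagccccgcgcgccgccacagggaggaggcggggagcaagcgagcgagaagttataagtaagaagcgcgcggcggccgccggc
Batf3: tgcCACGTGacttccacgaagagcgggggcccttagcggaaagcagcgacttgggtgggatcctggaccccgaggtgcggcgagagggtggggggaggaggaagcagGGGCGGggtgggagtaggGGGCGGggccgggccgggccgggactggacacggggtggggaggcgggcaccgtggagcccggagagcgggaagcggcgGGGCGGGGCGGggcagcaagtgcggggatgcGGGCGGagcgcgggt
The windows differ in build. Cebpa has a TATA box that begins 30 bases before the start and no other match, whereas Klf4 has 4 GC boxes and Batf3 has 5, overlapping ones counted separately, and each of these has 1 E-box.

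Cebpb and Id2 were on the higher side with LPS, by less than 2-fold. Cebpb (1418901_at) read 2779 in media and 3021 with SEA, against 3563 with LPS and 5035.5 with SEA/LPS. Its other probe set (1427844_a_at) read 1748.5, 1679, 2187 and 2654. Both had their highest signal with SEA/LPS, which was 1.81-fold and 1.52-fold over media. As deposited, then, the paralogues lay on opposite sides with LPS, Cebpa lower and Cebpb higher, though the side of Cebpb turned (-0.19) with the hybridisation controls matched.

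Id2 (1435176_a_at) read 1583 in media and 1853 with SEA, against 2188 with LPS and 2726 with SEA/LPS. A second probe set (1422537_a_at) read 876, 885, 928 and 1451, and another (1453596_at) read 124, 136, 104 and 133. The first pair was highest with SEA/LPS, while the last spanned only 0.38 log2 and was lowest with LPS. With the hybridisation controls matched, the LPS difference of Id2 went from 0.47 to -0.08.

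The promoter windows of Id2 and Cebpb are shown because their signals were highest on the same array, the one with both agents. Id2 lies on the minus strand at chr12:25096093-25096342 and Cebpb on the plus strand at chr2:167688665-167688914, with the same marks as above.
Id2: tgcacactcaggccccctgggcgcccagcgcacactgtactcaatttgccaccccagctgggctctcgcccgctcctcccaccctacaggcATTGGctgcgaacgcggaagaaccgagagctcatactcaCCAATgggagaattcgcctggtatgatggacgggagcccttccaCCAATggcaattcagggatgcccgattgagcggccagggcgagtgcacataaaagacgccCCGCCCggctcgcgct
Cebpb: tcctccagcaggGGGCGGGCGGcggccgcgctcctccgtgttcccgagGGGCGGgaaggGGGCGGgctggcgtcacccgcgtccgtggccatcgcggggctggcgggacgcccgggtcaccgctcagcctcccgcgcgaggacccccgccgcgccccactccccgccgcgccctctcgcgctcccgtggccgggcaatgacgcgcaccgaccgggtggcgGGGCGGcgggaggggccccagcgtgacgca
Id2 has 3 CCAAT boxes and 1 GC box, and Cebpb has 5 GC boxes and no CCAAT box. Over 32851 mouse promoter windows of this length in the RefSeq table, 33.8% hold a CCAAT box, 12.4% a TATA box, 32.7% a GC box and 6.02% an E-box. The windows shown hold 62.8% to 81.6% G and C, against a median of 52.4% for all. Of 11 windows for 8 of the factors, 0 held the NF-kappaB consensus (3.90% of all windows), 0 the interferon response core GAAANNGAA (7.13%) and 0 the C/EBP palindrome TTGCGCAA (0.164%), which says only that these letters are not in the windows. The PU.1 and ETS motif GAGGAA was found in 3 of the 11, one each of Batf3, Runx1 and Bcl6, and in 23.3% of all. All motifs were read on both strands. Spi1 and Tcf4 are not among these windows.

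The RUNX pair gave the least settled readings. Runx3 (1421467_at), its only probe set, read 156 in media and 25.4 with SEA, against 175 with LPS and 122 with SEA/LPS. The SEA array alone was low, under the floor, and the other 3 lay within 0.52 log2 of each other. T cell and NK cell markers, from cell types in which Runx3 is strongly used, were set beside it. The 6 measured NK and innate lymphoid markers summed to 1299 in media and 1742.5 with SEA, most of it from Il7r (1081 and 1528). Ncr1 (41.5 in media and 22 with SEA) and Eomes (49.5 and 21.3) were, like Runx3, above the floor in media and under it with SEA. On the LPS and SEA/LPS arrays Ncr1 read 46 and 34.4, and Eomes 30.8 (under the floor) and 35.3, unlike Runx3. Prf1 (49.1 in media and 74.3 with SEA) and Klrk1 (62.6 and 68.4) were higher with SEA, and Gzma was under the floor in media and with SEA. Nkg7, Gzmb and Gata3 were at the floor on every array, and the measured T cell markers, Cd247 and Cd8a, were under it on both of these arrays. Their part in the Runx3 reading was not tested. With the hybridisation controls matched, the LPS difference of Runx3 went from 0.17 to -0.39.

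The 5 probe sets of Runx1 did not point one way. The one used (1452530_a_at) read 108.5 in media and 90.6 with SEA, against 83.1 with LPS and 134 with SEA/LPS. A second pair, 1422864_at and 1422865_at, read 135 and 160 in media, 103 and 110.2 with SEA, 72.6 and 71.4 with LPS, and 57.4 and 58.5 with SEA/LPS. On these the SEA/LPS array was the lowest, whereas on the one used it was the highest. Of the remaining probe sets, 1452531_at read 66.8, 39.5, 21.5 and 48.9, and 1427650_a_at read 9.7, 44.5, 9.9 and 96.9, in the same order. With LPS 4 of 5 were under media, with 1 at the floor on both arrays; in SEA/LPS over LPS 3 were above 0 and 2 below. By size, 1427650_a_at was at least 2.91-fold higher with SEA/LPS, both over LPS and over media. Against media, 1422864_at and 1422865_at were 2.36-fold and 2.73-fold lower with SEA/LPS. With LPS alone, 1422865_at was 2.24-fold lower and 1452531_at at least 2.01-fold lower than media. Whether the probe sets report different transcripts was not tested.

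RUNX proteins bind the sequence ACCACA, and the upstream promoters of Runx1 and Runx3 share a stretch with 2 copies of it, shown because it is what these members have in common beside their protein family. The shared run is 18 bases long. It begins at base 27 after the start in Runx1 (minus strand, chr16:92826026-92826053) and 136 bases before the start in Runx3 (plus strand, chr4:135120504-135120531), in build GRCm38.p6, and capitals mark ACCACA.
Runx1: ataaacaACCACAgaACCACAagttggg
Runx3: tccctcaACCACAgaACCACAaggccag
Among all 250-base windows 14.0% hold ACCACA on either strand, and 1 of the 11 windows of the factors does, one of Runx3. The Runx1 stretch lies after the start, outside its window, so this share does not cover it.

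Bcl6 was close to the floor throughout. Its probe set used (1450381_a_at) read 45.9 in media and 49.8 with SEA, against 49.4 with LPS and 12.8 with SEA/LPS, and the second (1421818_at) read 39.6, 27.3, 49.9 and 40.3. Each was under the floor on 1 array, and not on the same one. No difference of Bcl6 reached 2-fold in any comparison.

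**Figure D2:**
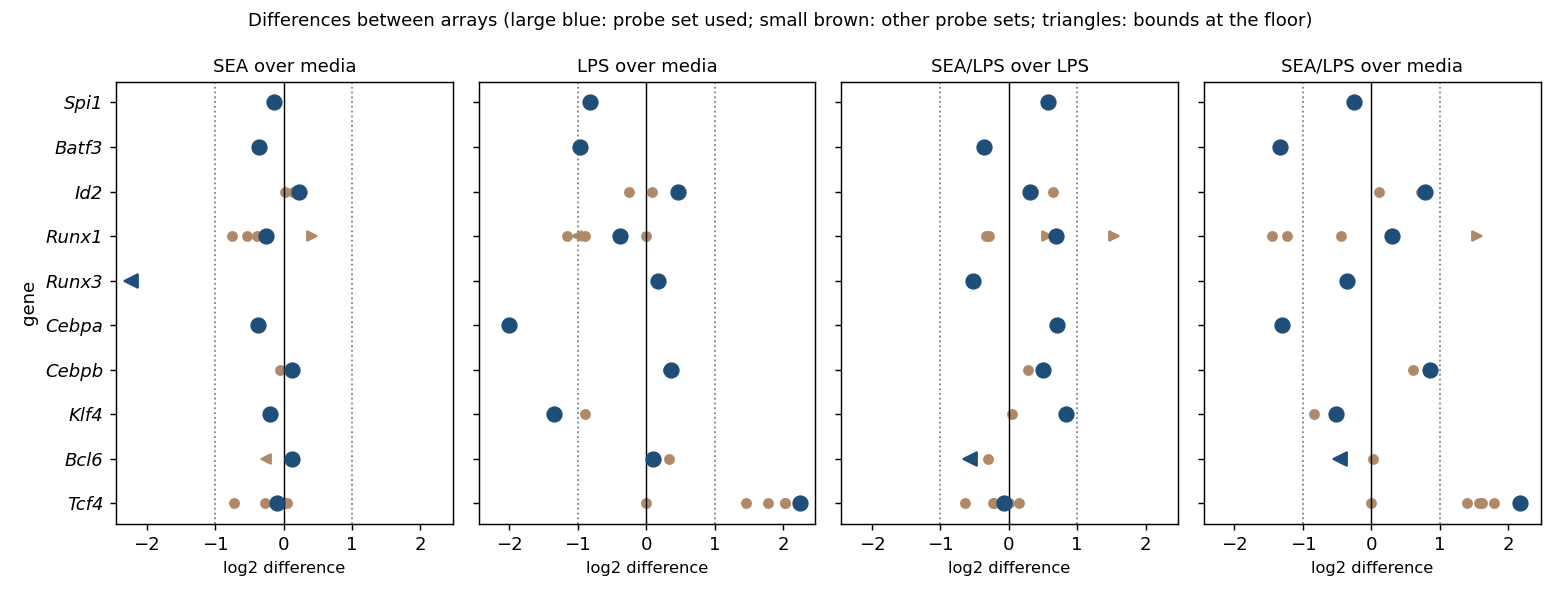
Log2 differences between arrays (x axis) for every probe set of the 10 factors (y axis) in 4 comparisons; large blue points are the probe sets used, small brown points the others, triangles are bounds against an array at the floor, and dotted lines mark 2-fold. Tcf4 lies past 2-fold to the right and Cebpa past 2-fold to the left in both comparisons of an LPS array with media.

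SEA alone left most of the factors near media. The differences of 9 of the 10 lay between -0.37 (Cebpa) and 0.23 (Id2), and Runx3 was at least 4.68-fold lower on the array with SEA. So 1 of 10 factors was at least 2-fold lower, where 0.633% of measured genes were, and 0 were higher, where 0.644% were. The median of the 10 factors was -0.17, beside 0 for all genes. Runx3 rests on a single probe set of a single array.

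SEA/LPS over LPS asks how SEA changes cells that also meet LPS. On the probe sets used, none of the 10 factors reached 2-fold, whereas 1.39% of measured genes were higher and 3.47% lower by that size. Bcl6 lay too close to the floor to reach it. Of the other probe sets, 1427650_a_at of Runx1 was at least 2.91-fold higher. Klf4 was 1.78-fold, Cebpa 1.63-fold, Runx1 1.61-fold and Spi1 1.48-fold higher with SEA/LPS than with LPS. With LPS alone these 4 had read under media, but both comparisons rest on the same LPS array, so the readings are not independent. Cebpb (1.41-fold) and Id2 (1.25-fold, and 1.56-fold on its second probe set) were also higher, and these had read above media with LPS. On the mean of its probe sets Runx1 lay under media with SEA/LPS (-0.26), against 0.30 on the one used. Batf3, also low with LPS, was 1.28-fold lower still, and Tcf4 was within 0.07 log2. The second probe set of Klf4 read 0.05, against 0.83 on the one used. Over the 10 factors the median was 0.41, beside -0.01 for all genes. Among all genes past 2-fold, 28.6% were on the higher side as deposited, 39.5% with the 75th percentile matched, 43.3% after quantile normalization and 69.1% with the hybridisation controls matched.

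SEA/LPS over media gives the state with both agents against neither. Tcf4 was 4.51-fold higher, Batf3 2.51-fold lower and Cebpa 2.47-fold lower. Klf4 (-0.52) and Spi1 (-0.25) were nearer to media than with LPS alone, and Cebpb (0.86) and Id2 (0.78) stood just under 2-fold as deposited. With the 75th percentile matched, Cebpb passed it (1.06). In counts, 1 of 10 factors was at least 2-fold higher, where 4.54% of measured genes were, and 2 of 10 lower, where 7.05% were. The comparison shares its media array with LPS over media and its SEA/LPS array with the one before. Of all genes past 2-fold, the higher side held 39.2% as deposited, 58.6% with the 75th percentile matched, 52.0% after quantile normalization and 16.5% with the hybridisation controls matched.

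The SEA difference with LPS minus that without LPS had a median of 0.54 over the 10 factors, beside -0.06 for all genes. For Tcf4 it was 0.03 (-0.06 after quantile normalization) and for Id2 0.09. For Bcl6 it was -0.69, with the SEA/LPS array under the floor. It was 1.07 for Cebpa and 1.03 for Klf4, both of which were lower with SEA alone and higher with SEA added to LPS. For Runx3 it was at least 1.71, set by the floor value with SEA. For Runx1 it was 0.95 and for Spi1 0.70. In counts, 3 of 10 factors were at or above 1, where 3.16% of measured genes were, and 0 were at or below -1, where 6.54% were. The second probe set of Klf4 gave 0.24 and the mean of both 0.64, under the 2-fold size, and the difference of differences itself was not tested.

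**Figure D3:**
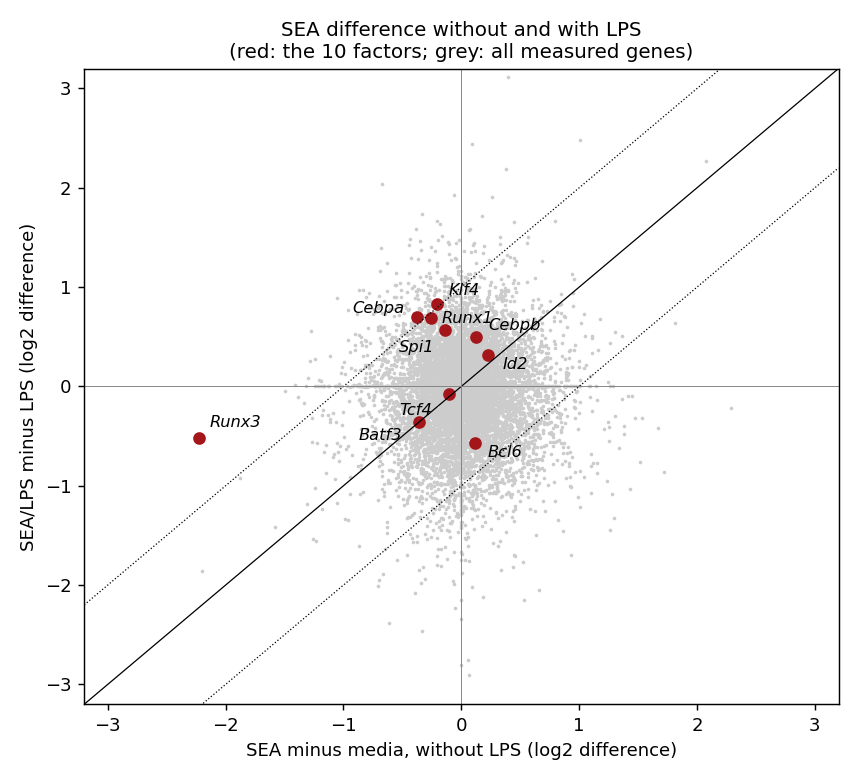
Log2 difference of SEA from media (x axis) against that of SEA/LPS from LPS (y axis), for the 10 factors in red and 9473 measured genes in grey; the solid line marks equal differences and the dotted lines 1 log2 apart. Cebpa and Klf4 lie in the upper left, 1.07 and 1.03 above the line of equality, Runx3 lies far left, and Batf3 and Tcf4 lie on the line.

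Other factors of the same families were set beside the 10. The 7 lists of related factors hold 70 measured genes beside the 10. With LPS 12 of the 70 were at least 2-fold higher and 12 lower, and in SEA/LPS over LPS 3 were higher and 9 lower, with medians of -0.0015 and 0. For these and the list counts that follow, the shares over all measured genes are 6.06% higher and 8.43% lower with LPS, and 1.39% higher and 3.47% lower in SEA/LPS over LPS.

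KLF factors had 3 of 8 measured members lower with LPS and 0 higher: Klf2, a regulator of cell quiescence (322 in media and 65.2 with LPS), Klf10, a target of TGF-beta signalling (216 and 62.7), and Klf13 (289.9 and 106). With SEA/LPS, Klf10 read 139.8 and Klf13 read 288, both over 2-fold above LPS alone, and the list median in SEA/LPS over LPS was 0.52. Klf4 was no member of that list and lay on the same sides, and both comparisons rest on the same LPS array. E proteins and ID proteins had 2 of 6 lower with LPS and 0 higher. These were Tcf3, the E protein E2A (332 in media and 130 with LPS), and Id3, an inhibitor like ID2 (79.7 in media and under the floor with LPS). Tcf12, also an E protein, read 139.5 and 126. Of the 3 E protein genes, then, Tcf4 was the one higher with LPS.

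Among bZIP factors, the family of C/EBP and BATF proteins, 4 of 17 were higher with LPS and 3 lower, and 3 were lower and 0 higher in SEA/LPS over LPS. Batf2, a relative of BATF3, read 55 in media and 209 with LPS. Jun, a partner of BATF proteins, read 896 in media, 212 with LPS and 412 with SEA/LPS. Batf read 150.1 in media, 201 with LPS and 70.5 with SEA/LPS, which was 2.86-fold under LPS. Ddit3, a C/EBP relative of the stress response, read 99.4 in media and was under the floor with LPS. The ETS family of PU.1 had 2 of 11 higher with LPS (Etv6 2.43-fold and Elf1 2.04-fold) and 1 lower (Fli1 2.11-fold), and 0 past 2-fold in SEA/LPS over LPS.

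RUNX partners had 1 of 5 higher and 1 lower with LPS. The corepressor gene Cbfa2t3 read 314 in media, 75.5 with LPS and 166.5 with SEA/LPS, and Tle3, also a corepressor, read 145 and 424 in the first 2 of these. Cbfb, the shared subunit of RUNX proteins, read 954 to 1342 over the 4 arrays. In the list of BCL6 corepressors and BTB zinc finger factors 1 of 6 was lower with LPS, Zbtb7b (604 in media and 126 with LPS), and Zbtb46, which marks conventional dendritic cells, read 77.9 to 104.5. Other lineage regulators had 5 of 17 higher and 1 lower with LPS, and 6 lower and 0 higher in SEA/LPS over LPS. Irf8, which acts with PU.1 and BATF3 in cDC1, read 489.6 in media, 1911 with LPS and 955 with SEA/LPS. Stat5a read 177, 873 and 261 and Stat3 read 608, 1537 and 690.1 on the same 3 arrays. Myc read 190.3 in media and was at the floor on both arrays with LPS.

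**Figure D4:**
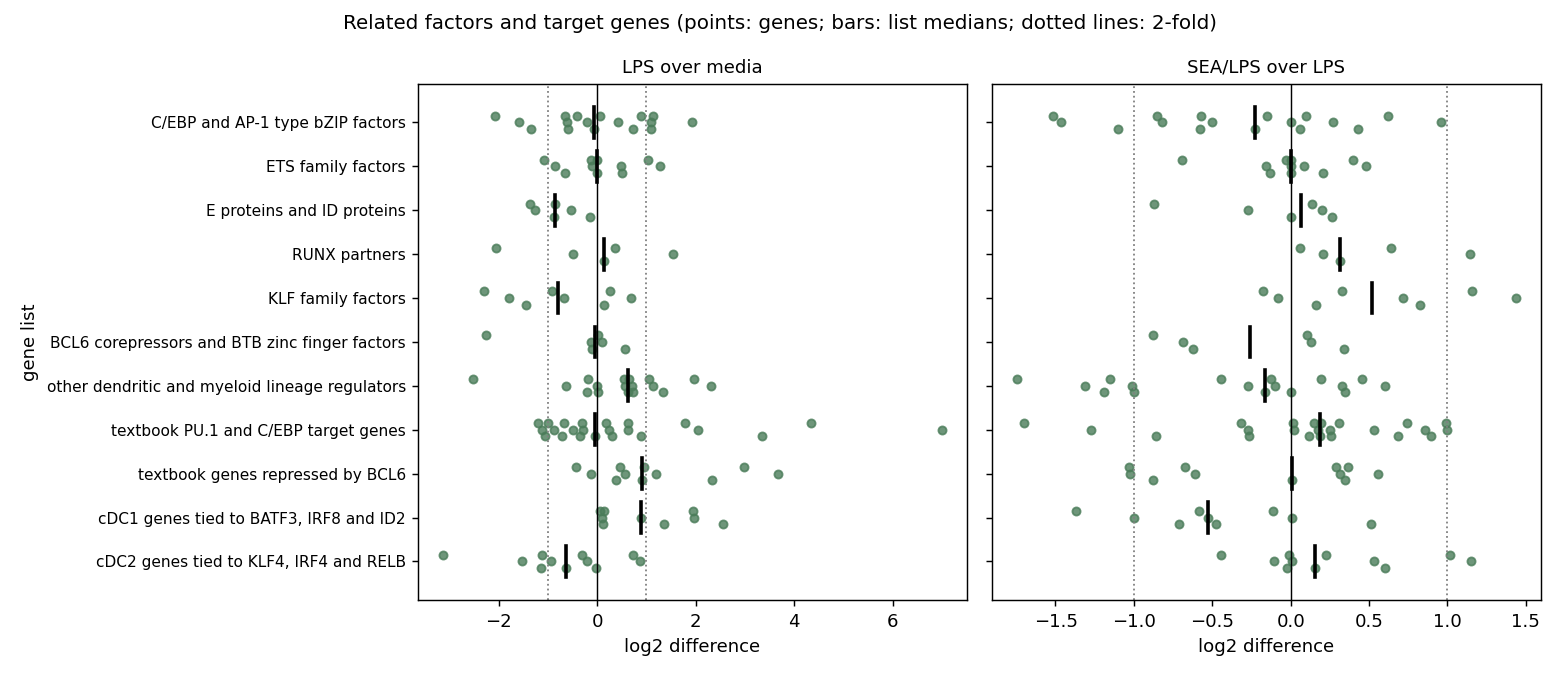
Log2 differences (x axis) of the measured genes of 11 lists of related factors and target genes (y axis) for LPS against media and for SEA/LPS against LPS alone; points are genes, bars list medians and dotted lines 2-fold. The KLF list has a median of -0.79 with LPS and 0.52 in SEA/LPS over LPS, and both comparisons use the same LPS array.

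Genes that these factors are known to control were described by list as well, beside the 6.06% of all measured genes that were higher and 8.43% that were lower with LPS. Of 23 measured PU.1 and C/EBP targets 5 were higher and 4 lower with LPS, with a median of -0.04. The higher ones were Cd14 (3.46-fold) and the inflammatory genes Il6 (127-fold), Il1b (20.2-fold), Lcn2 (10.2-fold) and Saa3 (4.12-fold), which C/EBPbeta serves. The lower ones were Csf2rb (2.28-fold), Itgam (2.16-fold), Fcgr3 (2.08-fold) and Btk (380.1 in media and 189.9 with LPS). The part of C/EBPbeta in these differences was not tested. The cDC2 list tied to KLF4, IRF4 and RELB had 4 of 11 lower with LPS (8.43% of all genes) and 0 higher. These were Ccr2 (8.69-fold, also a macrophage and monocyte marker here), Clec4a2 (2.86-fold), Mgl2 (2.19-fold) and Itgam (2.16-fold, also among the PU.1 and C/EBP targets). In SEA/LPS over LPS, which uses the same LPS array, 2 of these, Ccr2 and Clec4a2, were 2.22-fold and 2.02-fold higher. The cDC1 list tied to BATF3, IRF8 and ID2 had 4 of 9 higher with LPS and 0 lower, Fzd1, Irf8, Tlr3 and Ly75, while Batf3 itself was lower and Xcr1, a defining cDC1 receptor, read 28.2 to 60.4. Of 11 measured genes that BCL6 is known to repress, 4 were higher with LPS and 0 lower: Ccl3 (12.7-fold), Ccnd2 (7.93-fold), Ccl2 (5.06-fold) and Cd80 (2.28-fold). In SEA/LPS over LPS, the PU.1 and C/EBP, cDC1 and BCL6 lists each had 0 higher and 2 lower, unlike the cDC2 list with 2 higher and 0 lower. Over all measured genes 1.39% were higher and 3.47% lower there.

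The genes most like each factor were found among 7142 genes above the floor on every array, by the Euclidean distance over the 3 log2 differences from media. Nearest to Cebpa were Elmo2 and Mgll (both 0.078), and nearest to Klf4 were Tmem189 (0.063) and Colgalt1 (0.12). Batf3 had Was (0.054) and Tpm2 (0.091), and Tcf4 had Cflar (0.17) and Sap30 (0.21). Was, which encodes the actin regulator of Wiskott-Aldrich syndrome, read 437 in media and 330.2 with SEA, against 219 with LPS and 174 with SEA/LPS. Cflar, an inhibitor of caspase 8, read 152, 145, 698 and 764. The distances were larger for Tcf4 than for the other 3 factors.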

How the data were processed

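Total RNA of 4 mouse dendritic cell samples, 1 per group, was measured on Affymetrix arrays. The values are the deposited intensity per probe set, on a linear scale judging from the values, with 2% trimmed means of 150.1 on each array, so the arrays had been scaled before deposit, which hides any difference in total RNA. Which software made the deposited intensity values was not given in the sources used here.

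Probe sets were named through the platform annotation, with symbols updated by Entrez identifier (RefSeq genes of GRCm38.p6). Of 22690, 20380 carried 1 symbol, 691 several and 1555 none, and those with several or none were left out with the 64 controls. Signals were floored at the 40th percentile and log2 was taken, with no further scaling. The probe set with the highest mean floored log2 stood for a gene, and 9473 genes with an array above the floor counted as measured. Of the 24 probe sets of the 10 factors, 17 lay above the floor on every array, 23 on at least 1 array and 1 on none. All 10 factors were measured.

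No test was possible with 1 array per group. Genes were counted at 2-fold with the brighter array above the floor, and the code was tested on simulated data. The number of arrays limits the precision. Alternatives changed the scaling, the floor, the choice of probe set and the fold. The rule for names took the 10 factors, up to 4 members of each list past 2-fold in LPS over media or SEA/LPS over LPS, and the 2 nearest genes to each factor that spanned 2-fold above the floor. Tcf12, Cbfb, Zbtb46, Xcr1, Itgax, Csf1r, Cd14, Csf2rb, Fcgr3 and Btk were named outside it, after their values were seen. So were the markers of B, T, NK and plasmacytoid dendritic cells other than Bst2 and Irf7, and the markers at the floor. The factors and lists were chosen with earlier results of these data known. Analyses used Python 3.11.15, numpy 2.4.6, pandas 2.3.3 and scipy 1.17.1.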

Additional observations from a re-analysis of the deposited data

Results flagged for a closer look

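For Cebpa the SEA difference was -0.37 without LPS and 0.70 with LPS, opposite in direction and 1.07 log2 apart. For Klf4 it was -0.20 without LPS and 0.83 with LPS, 1.03 log2 apart, and its second probe set gave 0.24. Each difference rests on 1 array per group, and the difference between them was not tested.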

How the results depend on the processing

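With LPS over media, 5 factors instead of 3 were past the size threshold when scaled to the hybridisation controls and also 5 at 1.5-fold, Spi1 and Batf3 joining in both cases. In SEA/LPS over LPS the count of 0 became 1 (Klf4) when scaled to the hybridisation controls and 3 (Runx1, Cebpa and Klf4) at 1.5-fold. In SEA/LPS over media the count of 3 became 4 when scaled to the 75th percentile, with Cebpb added, and 5 at 1.5-fold, with Id2 and Cebpb added. Scaling to the hybridisation controls moved the median of all genes by -0.50 in LPS over media, -0.30 in SEA/LPS over media and 0.11 in SEA/LPS over LPS, and the 75th percentile and quantile scalings moved it by 0.12 and 0.11 in SEA/LPS over media. No difference past 2-fold changed direction under any of 7 alternatives of scaling, floor and probe set. Smaller differences did, among them Runx1 in SEA/LPS over media, which went from 0.30 to -0.26 on the mean of its probe sets. Bcl6 in SEA over media went from 0.12 to -0.54 with the floor at the 25th percentile. At that floor the other Bcl6 probe set (1421818_at) became the one used, and -0.54 is its difference. Bcl6 gave no value with the floor at the 50th percentile.

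Over all genes, the number past the threshold in SEA over media was 121, and 543 and 43 with the floor at the 25th and 50th percentile. In SEA/LPS over LPS it was 461, and 1107 and 304 with those floors. In SEA/LPS over media it was 1098, and 1679 with the lower floor and 1750 with the hybridisation controls matched, a scaling that took it from 1373 to 2715 in LPS over media. At 1.5-fold these counts became 862 for SEA over media, 3324 for LPS over media, 2006 for SEA/LPS against LPS and 2854 for SEA/LPS against media. Low signal limits the readings of Bcl6, Runx3 with SEA and part of Runx1. With 1 array per group, leaving out a replicate and a paired analysis were not possible.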
